A study of Mus musculus with 4 samples.

Results

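The 10 genes described here carry the class I antigen presentation route and the immunoproteasome: the heavy chains H2-D1, H2-K1 and H2-T23, the light chain B2m, the peptide transporter genes Tap1 and Tap2, the loading chaperone tapasin (Tapbp), and the catalytic subunits Psmb8, Psmb9 and Psmb10. They were taken as every probe whose gene name on the array was 1 of these 10 symbols, which gave 19 of 41174 probes and 10 of 28632 names. Of the 19 probes, 18 passed the detection filter, and all 10 genes were tested. The rule used no measured value.

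RNA levels were read in whole amygdalae of 10-week-old male C57BL/6J mice at 6 h past an intraperitoneal dose, on 1-colour oligonucleotide arrays. The 4 groups of 4 arrays were P2X7R knockout (KO) mice given lipopolysaccharide (LPS, the endotoxin of Gram-negative bacteria), KO mice given saline, wild-type (WT) mice given LPS and WT mice given saline. The labels give the LPS dose as 7.5 µg per mouse and as 250 µg/kg, and name the knockout as P2X7R -/-, a loss of the ATP-gated ion channel encoded by P2rx7, without saying which part of the gene was removed. Each group had 4 mice per the labels, but no array is matched to a mouse there, and each p-value reflects only how arrays within a group vary, which may be technical.

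Almost all nucleated cells display short peptides from their own proteins on class I molecules. The proteasome cuts proteins into peptides, the Tap1-Tap2 transporter moves them into the endoplasmic reticulum, tapasin bridges the transporter to an empty class I molecule, and a heavy chain paired with beta-2 microglobulin carries the peptide to the cell surface, where CD8 T cells and natural killer cells read it. Interferons raise the whole route and exchange the standard catalytic subunits of the proteasome for the immunoproteasome subunits; in resting brain the route is usually kept low.

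Levels are on a log2 scale on which 0 is the 75th percentile of the processed intensities on an array, and they are not compared between probes. The 75th percentile lay between 345.9 and 614.0 intensity units on the KO arrays and between 580.8 and 1152.5 on the WT arrays, and 58.1% to 71.8% of probes were well above background. The arrays sat on 4 slides: slides 3 and 4 held the KO arrays and slides 1 and 2 the WT arrays, each with 2 LPS and 2 saline arrays, and the KO slides were scanned in another session than the WT slides. Genotype and scan session therefore cannot be told apart, while LPS and saline can be compared within every slide. Of the 2 P2rx7 probes, the brighter lay between -1.69 and -0.80 on the 8 KO arrays and between -0.14 and 0.90 on the 8 WT arrays, a KO minus WT difference of -1.51 ± 0.25 after saline (SE, adjusted p = 2.0e-04, limma over probes), and the other showed a difference of 0.24 ± 0.29 (adjusted p = 0.515).

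WT saline arrays 1 and 2, both on slide 1, stood apart from WT saline arrays 3 and 4 on slide 2. In 8 of the 10 genes both slide 1 arrays lay above both slide 2 arrays, against a background of 27.1% of all 19462 genes tested, and Tap2 and Psmb10 were the exceptions. H2-K1 stood at 5.36 and 4.83 on WT saline arrays 1 and 2 and at 3.04 and 3.03 on arrays 3 and 4, and Tap1 at -1.48 and -1.41 on the first pair and -4.78 and -4.68 on the second. The mean level of 4 neutrophil and monocyte markers was -0.29 and -0.24 on the slide 1 pair and -2.50 and -2.49 on the slide 2 pair, and that of 7 oligodendrocyte markers 2.51 to 2.53 on slide 1 and 3.63 to 3.69 on slide 2. The choroid plexus list ran from -4.34 to -4.20 on slide 1 and from -2.06 to -1.79 on slide 2, and the striatum list from 0.40 to 0.46 and from 1.27 to 1.28. The microglial, endothelial, B cell, T and natural killer cell, neuron, amygdala neuron and hippocampus lists were likewise lower on both slide 1 arrays than on both slide 2 arrays. Only the astrocyte list overlapped, at 2.22 to 2.30 on slide 1 and 2.26 to 2.29 on slide 2. The part of these marker differences in the results was not tested. For the 10 genes, the calls for LPS in WT and for KO against WT are given with and without arrays 1 and 2, while correlations and probe-level values use all 16 arrays.

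**Figure D1:**
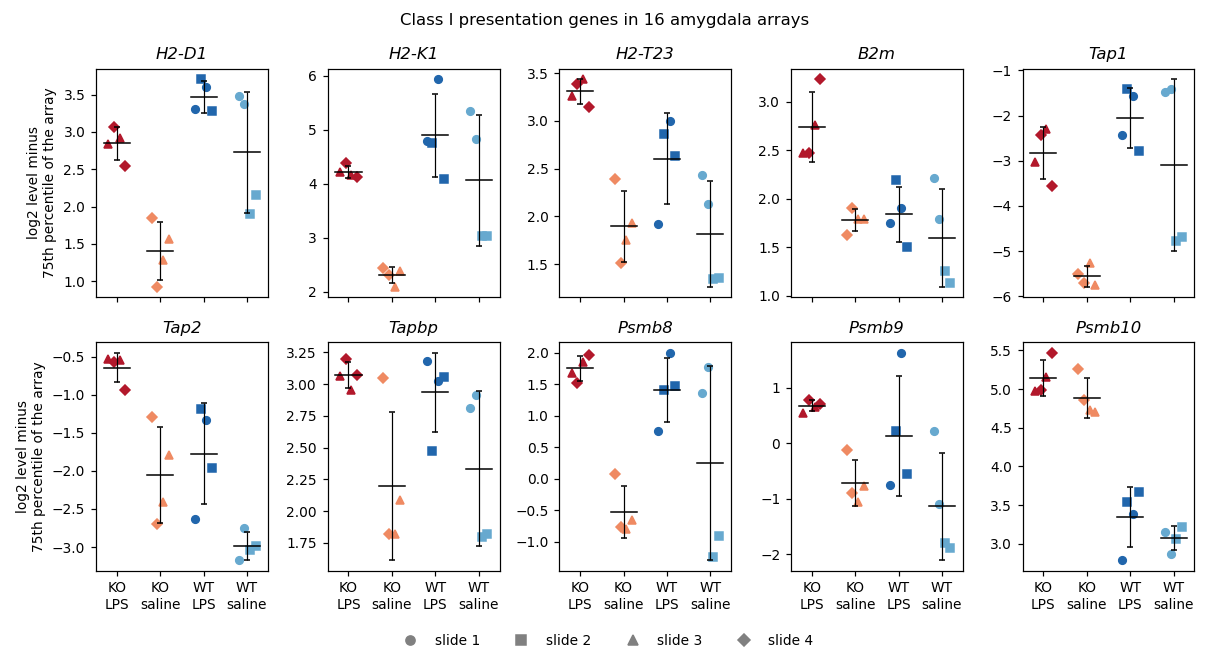
Level of each of the 10 genes (log2, with the 75th percentile of an array at 0) on every array, by group, with the marker shape giving the slide and the bar and whiskers the mean and SD of 4 arrays. In KO, the LPS arrays lie above the saline arrays in 8 genes, with overlap in Tapbp and Psmb10, and in WT the saline arrays of slide 1 lie above those of slide 2 in 8 genes.

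In KO amygdala, class I genes were higher after LPS. Of the 10 genes, 7 rose and none fell: H2-D1, H2-K1, H2-T23, B2m, Tap1, Tap2 and Psmb8, with log2 differences from 0.96 (B2m) to 2.29 (Psmb8) in 6 of them and of at least 2.09 in Tap1, which was dim in KO saline. Psmb9 (1.39), Tapbp (0.88) and Psmb10 (0.26) did not pass the test. A gene was called where the adjusted p of limma over all 19462 genes was under 0.05, which called 2.50% of all genes as higher and 3.66% in either direction. All 10 differences were above 0, with a median of 1.41 against -0.09 over all genes. The LPS arrays lay wholly above the saline arrays in 8 genes, which 5.10% of all genes also did.

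The classical heavy chains present peptides to CD8 T cells. H2-K1 stood at 4.22, 4.38, 4.16 and 4.14 on KO LPS arrays 1 to 4, against 2.44, 2.31, 2.10 and 2.39 on KO saline arrays 1 to 4. All LPS arrays lay above all saline arrays, and the difference was 1.91 ± 0.46 (SE; 3.76-fold, adjusted p = 0.0287, limma). The call was lost under quantile scaling (1.92, adjusted p = 0.0655). H2-D1 stood at 2.84, 3.07, 2.92 and 2.54 on the KO LPS arrays, against 1.84, 0.93, 1.28 and 1.57 on the KO saline arrays. These groups did not overlap either, with a difference of 1.44 ± 0.32 (2.71-fold, adjusted p = 0.0166, limma). All 4 H2-K1 probes rose when every probe was tested on its own, by 1.49 to 2.06, as did both H2-D1 probes that passed the filter, by 1.44 and 1.65. The brightest H2-K1 probe shares a run of 25 bases with another H2-K1 probe, so the H2-K1 probes are not fully separate readings. The remaining probe named H2-D1 is placed elsewhere, at mm9 chr17:36323454-36323516 on the minus strand. It was well above background on 0 of 16 arrays.

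H2-T23 encodes the non-classical heavy chain Qa-1, which presents signal peptides of other class I molecules to inhibitory receptors of natural killer cells. It stood at 3.26, 3.39, 3.44 and 3.14 on KO LPS arrays, against 2.39, 1.52, 1.75 and 1.93 on KO saline arrays. The lowest LPS array was above the highest saline array, and the difference of 1.41 ± 0.28 (2.66-fold) had the smallest adjusted p of the 10 genes (0.0094, limma). It was the only call among them that held without each of the 8 KO arrays in turn.

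Heavy chain genes are close copies of each other, and their probes are not fully separate. The brighter H2-D1 probe, at mm9 chr17:35403132-35403191 on the plus strand, is shown because it shares a run of 24 bases, in capitals, with the probe for H2-Q2.
H2-D1 probe: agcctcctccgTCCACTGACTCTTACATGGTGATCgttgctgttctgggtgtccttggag
The H2-T23 probe shares 28 bases with the probe for H2-Q7, and H2-K1 probes share 16 bases with the H2-Bl probe and 20 with the H2-Q10 probe. Signals of these pairs cannot be fully told apart, and H2-Q2, H2-Q7, H2-Bl and H2-Q10 all rose after LPS in KO, as given below.

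B2m encodes beta-2 microglobulin, the light chain that every classical heavy chain needs to leave the endoplasmic reticulum. It stood at 2.47, 2.47, 2.76 and 3.23 on KO LPS arrays, against 1.63, 1.91, 1.79 and 1.79 on KO saline arrays. The groups did not overlap, and the rise was the smallest of the 7 calls, 0.96 ± 0.24 (1.94-fold, adjusted p = 0.0377, limma). The other B2m probes gave 0.999 (adjusted p = 0.0302 over probes) and 1.39 (adjusted p = 0.109). The B2m call was lost under normexp background correction (1.13, adjusted p = 0.0642) and with no filter on dim probes (adjusted p = 0.0669).

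Promoters of genes that moved together are shown for the motifs tied to interferon and NF-kB signalling, from 250 bases before to 50 after the start site (RefSeq, GRCm38.p6). In capitals are the interferon-stimulated response element core (GAAA, any 2 bases, GAAA), the gamma-activated site TTCNNNGAA and the NF-kB consensus, searched on both strands; the H2-K1 and H2-D1 matches to NF-kB hold on both. The table holds 9 of the 10 genes and 32851 promoters, of which 3.44% held the response element core, 8.30% the gamma-activated site and 4.51% the NF-kB consensus. The H2-K1 (chr17:34000298-34000597, minus strand, the first of 2 entries) and H2-D1 (chr17:35262844-35263143, plus strand) promoters share an unbroken run of 47 bases that surrounds the NF-kB match. The B2m promoter (chr2:122147437-122147736, plus strand) holds a response element core and an NF-kB match next to each other, starting 139 and 126 bases before the start site. The H2-T23 promoter (chr17:36032652-36032951, minus strand) holds the response element core on its reverse strand.
H2-K1 promoter: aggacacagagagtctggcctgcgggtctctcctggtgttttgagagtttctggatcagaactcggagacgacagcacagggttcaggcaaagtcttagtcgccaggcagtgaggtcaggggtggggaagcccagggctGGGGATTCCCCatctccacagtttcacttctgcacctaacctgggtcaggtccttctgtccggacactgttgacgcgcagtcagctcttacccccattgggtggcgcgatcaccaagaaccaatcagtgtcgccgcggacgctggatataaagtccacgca
H2-D1 promoter: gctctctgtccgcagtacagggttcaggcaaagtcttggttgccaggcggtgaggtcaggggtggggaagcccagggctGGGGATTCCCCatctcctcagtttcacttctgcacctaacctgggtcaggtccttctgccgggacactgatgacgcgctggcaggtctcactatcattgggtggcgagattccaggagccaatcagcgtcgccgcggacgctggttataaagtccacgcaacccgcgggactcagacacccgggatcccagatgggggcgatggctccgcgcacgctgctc
B2m promoter: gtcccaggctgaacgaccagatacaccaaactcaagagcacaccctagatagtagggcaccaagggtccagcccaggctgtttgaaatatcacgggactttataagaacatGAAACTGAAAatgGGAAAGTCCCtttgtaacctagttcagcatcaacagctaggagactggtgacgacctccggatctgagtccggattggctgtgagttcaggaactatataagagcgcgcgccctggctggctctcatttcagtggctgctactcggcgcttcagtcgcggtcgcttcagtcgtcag
H2-T23 promoter: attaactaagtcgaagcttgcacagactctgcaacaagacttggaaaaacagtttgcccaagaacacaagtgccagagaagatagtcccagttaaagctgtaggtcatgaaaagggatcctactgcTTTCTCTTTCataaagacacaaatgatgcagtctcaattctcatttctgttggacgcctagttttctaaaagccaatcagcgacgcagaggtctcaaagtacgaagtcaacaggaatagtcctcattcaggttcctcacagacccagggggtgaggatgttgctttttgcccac
Of the 9 genes, 2 held the response element core, 1 (Psmb8) the gamma-activated site and 3 the NF-kB consensus. A match describes the letters only.

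Tap1 and Tap2 encode the paired chains of the peptide transporter. Tap1 stood at -3.03, -2.43, -2.30 and -3.56 on KO LPS arrays, against -5.51, -5.70, -5.25 and -5.76 on KO saline arrays, where it was not well above background on any of the 4. Its level after LPS was at least 4.26-fold higher, the LPS mean of -2.83 set against a mean floor of -4.92 in KO saline (measured mean -5.55), with an adjusted p of 0.0302 (limma, on measured values that differed by 2.72 ± 0.66). Under normexp background correction the Tap1 difference was -0.15 (adjusted p = 0.857). Tap2 stood at -0.53, -0.56, -0.54 and -0.93 on KO LPS arrays, against -1.30, -2.70, -2.41 and -1.79 on KO saline arrays. The groups did not overlap, and Tap2 rose by 1.41 ± 0.32 (2.65-fold, adjusted p = 0.0185, limma). It was 0.50 under normexp (adjusted p = 0.267).

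Tapasin, encoded by Tapbp, holds class I molecules at the transporter until a peptide binds. It stood at 3.06, 3.20, 2.96 and 3.07 on KO LPS arrays, against 3.05, 1.82, 1.82 and 2.09 on KO saline arrays. KO saline array 1 was as high as the LPS arrays, and the difference of 0.88 ± 0.30 did not pass the test (adjusted p = 0.158, limma). Without KO saline array 1 it was called (1.16, adjusted p = 0.0257), and a second Tapbp probe gave 0.23 with all arrays (adjusted p = 0.684 over probes).

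Psmb8, Psmb9 and Psmb10 encode the inducible catalytic subunits that turn a proteasome into an immunoproteasome. Psmb8 stood at 1.68, 1.52, 1.85 and 1.97 on KO LPS arrays, against 0.08, -0.77, -0.80 and -0.66 on KO saline arrays. It rose by 2.29 ± 0.54 (4.89-fold, adjusted p = 0.0236, limma), and the other Psmb8 probe gave 2.18 (adjusted p = 0.0126 over probes). Psmb9 stood at 0.54, 0.77, 0.65 and 0.71 on KO LPS arrays, against -0.13, -0.90, -1.06 and -0.78 on KO saline arrays. The Psmb9 groups did not overlap in KO, yet its difference of 1.39 ± 0.48 did not pass the test (adjusted p = 0.162, limma over all 16 arrays). With only the 8 KO arrays in the fit the Psmb9 adjusted p was 0.0046. Psmb10 stood at 4.98, 4.98, 5.16 and 5.47 on KO LPS arrays, against 5.27, 4.86, 4.73 and 4.70 on KO saline arrays, which overlapped, with a difference of 0.26 ± 0.20 (adjusted p = 0.600, limma).

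Tap1 and Psmb9 lie head to head, with start sites 226 bases apart, so that their promoter windows share 275 bases (chr17:34187306-34187580). The plus strand window of Tap1 (chr17:34187306-34187605) is shown because it serves both genes, and it holds none of the 3 motifs. The Psmb8 window (chr17:34197945-34198244, plus strand) lies close by and holds a gamma-activated site 97 bases before its start site.
Tap1 promoter: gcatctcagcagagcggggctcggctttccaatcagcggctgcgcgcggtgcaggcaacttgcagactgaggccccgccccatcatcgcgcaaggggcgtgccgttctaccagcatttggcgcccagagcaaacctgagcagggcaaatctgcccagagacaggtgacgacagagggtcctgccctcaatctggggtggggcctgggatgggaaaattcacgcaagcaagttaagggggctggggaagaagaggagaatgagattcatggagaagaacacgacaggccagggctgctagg
Psmb8 promoter: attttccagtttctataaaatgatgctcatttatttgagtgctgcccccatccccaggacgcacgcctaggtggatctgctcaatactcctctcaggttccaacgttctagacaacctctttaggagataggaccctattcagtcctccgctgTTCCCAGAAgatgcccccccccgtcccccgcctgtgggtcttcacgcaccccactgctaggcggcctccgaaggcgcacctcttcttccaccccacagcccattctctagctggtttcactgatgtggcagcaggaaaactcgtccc
The 8 genes other than B2m (chromosome 2) and Psmb10 (chromosome 8) have probes on chromosome 17, in or near the major histocompatibility complex.

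All 10 differences were above 0 on both KO slides. Within slide 3, 8 of the 10 genes rose (all but B2m and Psmb10), against 2.93% of all genes, and the differences ran from 0.35 (Psmb10) to 2.49 (Psmb8), Tap1 left aside. Within slide 4 they ran from 0.17 (Psmb10) to 2.09 (Psmb8), Tap1 left aside, and none passed the test, against 0.853% of all genes called higher. There 7 of the 10 and 931 of all 19462 genes had an unadjusted p under 0.05 (limma). With slide as a block, 7 were called, against 3.01% of all genes. Without WT saline arrays 1 and 2, which enter only the shared spread here, the same number was called, against 3.12%.

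The calls in KO were not stable to leaving out 1 KO array. Without any 1 of the 8 KO arrays, 3 to 6 of the 7 calls were lost, and 1 to 5 genes were called in all. Without KO LPS array 2, KO LPS array 3 or KO saline array 2 only H2-T23 was called, without KO LPS array 1 or KO saline array 3 only H2-D1 and H2-T23, and without KO saline array 4 H2-D1, H2-T23 and Tap2. Without KO LPS array 4 the calls of H2-K1, B2m and Psmb8 were lost, and without KO saline array 1 those of H2-K1, B2m and Tap1. B2m was also lost without WT LPS array 3. The differences themselves moved little, with H2-K1 between 1.84 and 1.96 and Psmb8 between 2.20 and 2.50 over the 16 such fits. The SE comes from a spread shared by all groups. For H2-K1 the SD was 0.11 on KO LPS, 0.15 on KO saline and 1.21 on WT saline arrays. Its SE was 0.46 with all arrays and 0.29 without WT saline arrays 1 and 2. The part of this spread in the lost calls was not tested. The share of higher genes among all calls was 68.3%, and 46.8% under normexp.

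In the authors' deposited table of fold changes, Tap1 was 6.88-fold up, Psmb8 4.90-fold up and H2-K1 3.76-fold up between KO LPS and KO saline.

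**Figure D2:**
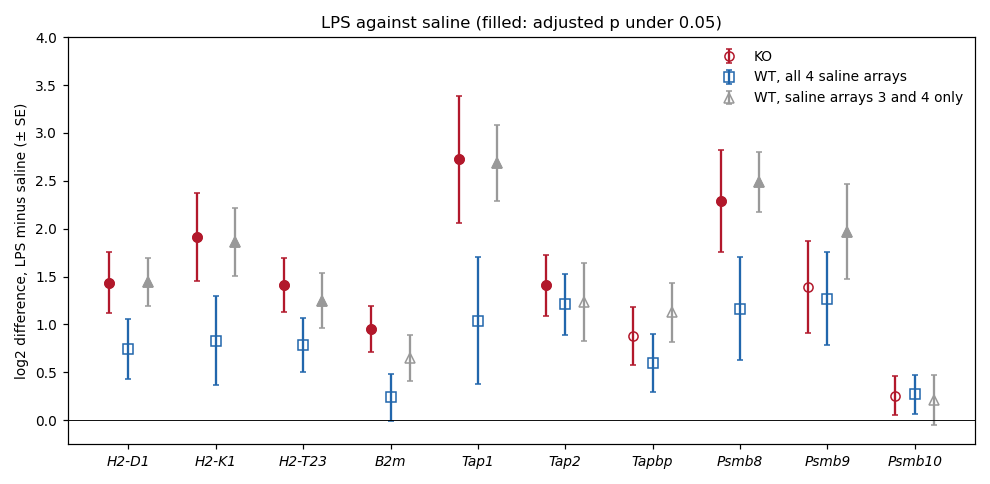
LPS minus saline difference (log2, ± SE) of each gene in KO, in WT with all 4 saline arrays and in WT with saline arrays 3 and 4 only, filled where the adjusted p was under 0.05. In KO 7 genes are called, in WT none with all arrays and 6 without saline arrays 1 and 2.

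In WT amygdala, no class I gene passed the test after LPS, although all 10 differences were above 0. They ran from 0.24 (B2m) to 1.27 (Psmb9), with a median of 0.81 against -0.04 over all genes. Only 2 genes of all 19462 were called (0.0103%), while 5 of the 10 and 1289 of all genes had an unadjusted p under 0.05 (limma). Tap2 came closest, at -2.63, -1.18, -1.33 and -1.96 on WT LPS arrays 1 to 4, against -3.17, -2.75, -3.04 and -2.99 on WT saline arrays. It was the only gene of the 10 whose WT groups did not overlap, against 1.90% of all genes, and its difference was 1.21 ± 0.32 (adjusted p = 0.428, limma).

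In the other 9 genes the WT groups overlapped. H2-K1 stood at 4.79, 4.76, 5.94 and 4.09 on WT LPS arrays, against 5.36, 4.83, 3.04 and 3.03 on WT saline arrays, a difference of 0.83 ± 0.46 (adjusted p = 0.795, limma). Psmb8 stood at 0.76, 1.41, 2.00 and 1.47 on WT LPS arrays, against 1.37, 1.77, -1.24 and -0.92 on WT saline arrays, a difference of 1.17 ± 0.54 (adjusted p = 0.743, limma). In both, WT saline arrays 1 and 2 lay among the LPS arrays and arrays 3 and 4 below all of them. Tap1 was alike in its saline arrays, with -2.43, -1.41, -1.56 and -2.78 on WT LPS arrays, against -1.48, -1.41, -4.78 and -4.68 on WT saline arrays (1.04 ± 0.66, adjusted p = 0.846, limma).

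H2-D1 stood at 3.30, 3.71, 3.60 and 3.28 on WT LPS arrays, against 3.47, 3.38, 1.90 and 2.16 on WT saline arrays (0.75 ± 0.32). H2-T23 stood at 1.93, 2.86, 2.99 and 2.63 on WT LPS arrays, against 2.43, 2.13, 1.35 and 1.36 on WT saline arrays (0.79 ± 0.28). B2m stood at 1.75, 2.19, 1.90 and 1.51 on WT LPS arrays, against 2.21, 1.79, 1.25 and 1.13 on WT saline arrays (0.24 ± 0.24). In these 3 genes WT saline arrays 1 and 2 were again the higher saline arrays, and none of the differences passed the test. Tapbp stood at 3.18, 2.48, 3.03 and 3.05 on WT LPS arrays, against 2.81, 2.92, 1.80 and 1.82 on WT saline arrays (0.60 ± 0.30). Psmb9 stood at -0.75, 0.21, 1.63 and -0.56 on WT LPS arrays, against 0.21, -1.09, -1.79 and -1.88 on WT saline arrays (1.27 ± 0.48). Psmb10 stood at 2.79, 3.55, 3.39 and 3.67 on WT LPS arrays, against 3.15, 2.87, 3.06 and 3.22 on WT saline arrays (0.27 ± 0.20). Tapbp and Psmb9 had saline arrays 3 and 4 below all LPS arrays, while the Psmb10 arrays of both WT groups were intermixed.

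Left without WT saline arrays 1 and 2, a choice made after the data had been seen, 6 of the 10 genes rose in WT, against 1.91% of all genes. They were H2-D1 (1.44 ± 0.25, adjusted p = 0.0049), H2-K1 (1.86 ± 0.35, 0.0086), H2-T23 (1.25 ± 0.29, 0.0305), Tap1 (2.68 ± 0.40, 0.0016), Psmb8 (2.49 ± 0.32, 4.4e-04) and Psmb9 (1.97 ± 0.49, 0.0464), all adjusted p values from limma. Tapbp (1.13), Tap2 (1.24), B2m (0.65) and Psmb10 (0.21) did not pass the test. These values come from 2 saline arrays of slide 2, set against LPS arrays of slides 1 and 2. Treatment and slide are therefore not balanced in this fit. The arrays left out were the higher saline arrays in 8 of the 10 genes, which by itself makes the differences of those genes larger. The wild-type result therefore depends on which saline arrays are counted.

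**Figure D3:**
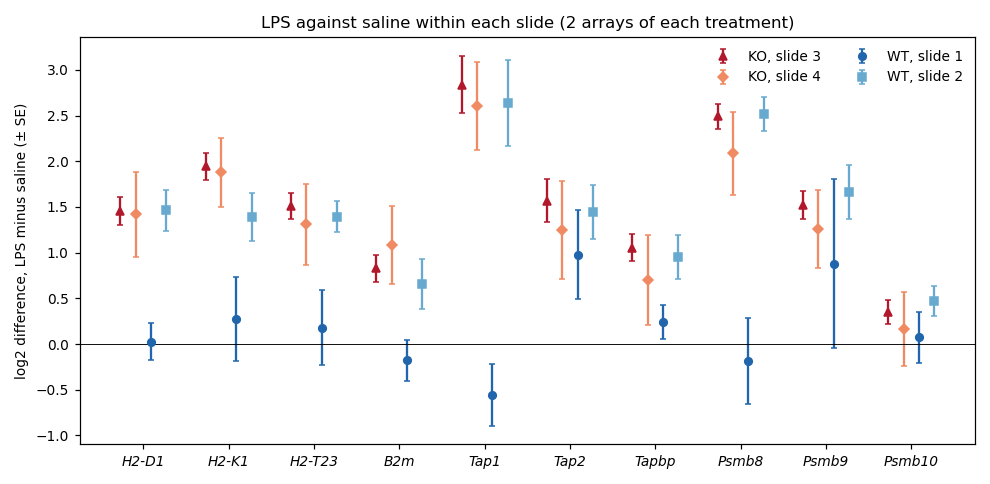
LPS minus saline difference (log2, ± SE) within each slide, from 2 LPS and 2 saline arrays each. The differences on slides 3 and 4 (KO) and slide 2 (WT) lie between 0.17 and 2.84 (the top values are Tap1, dim in KO saline), and those on slide 1 (WT) between -0.55 and 0.98.

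The within-slide values place the WT result beside its slides. On slide 2, which holds WT LPS arrays 2 and 4 and WT saline arrays 3 and 4, the 10 differences ran from 0.47 to 2.63 with a median of 1.42. Psmb8 (2.52 ± 0.19, adjusted p = 0.0195) and H2-T23 (1.39 ± 0.17, adjusted p = 0.0452) rose there (limma), against 0.961% of all genes. On slide 1 they ran from -0.55 (Tap1) to 0.98 (Tap2) with a median of 0.13, and none was called or had an unadjusted p under 0.05 (limma), against 0.0103% of all genes called. With slide as a block, none of the 10 was called in WT, against 0.0206% of all genes, and 7 of the 10 and 1855 of all genes had an unadjusted p under 0.05 (limma).

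The difference between the LPS responses of the genotypes passed the test in none of the 10 genes. The KO response minus the WT response ran from -0.02 (Psmb10) to 1.12 (Psmb8) in the 9 genes other than Tap1, whose KO saline level is only bounded, and none of the 10 had an adjusted or an unadjusted p under 0.05 (limma), against 0.0360% of all genes called. Without WT saline arrays 1 and 2 the range was -0.58 to 0.31. With every probe tested on all arrays, no probe of the 10 genes was called. Dimmer probes of H2-K1 (1.13, adjusted p = 0.640), B2m (0.83, 0.689) and H2-D1 (1.19, 0.745) had an unadjusted p under 0.05 (limma over probes). No other probe of the 10 genes did, against 1816 of all 28345 probes. A call in KO and none in WT is thus not a difference between genotypes that passed a test.

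Between genotypes after saline, 5 of the 10 genes differed, in a comparison that called 51.0% of all genes. Psmb10 and Tap2 were higher in KO and H2-D1, H2-K1 and Tap1 were lower, against 28.5% and 22.6% of all genes. Psmb10 stood between 4.70 and 5.27 on KO saline arrays, against 2.87 and 3.22 as lowest and highest on WT saline arrays, a difference of 1.81 ± 0.20 (3.52-fold, adjusted p = 7.6e-06, limma). It was also the one gene of the 10 still called without WT saline arrays 1 and 2 (1.75, adjusted p = 3.0e-04), where 35.7% of all genes were called. H2-K1 stood between 2.10 and 2.44 on KO saline arrays, against 3.03 to 5.36 on WT saline arrays, a difference of -1.75 ± 0.46 (adjusted p = 0.0055, limma), and without arrays 1 and 2 of -0.72 (adjusted p = 0.123). Other H2-K1 probes gave smaller differences with all arrays, of -0.96 (adjusted p = 0.0131), -0.72 (0.0604) and -0.46 (0.241, limma over probes). H2-D1 differed by -1.32 ± 0.32 (adjusted p = 0.0030, limma) and -0.62 (0.0675) without WT saline arrays 1 and 2. Tap1, not well above background in KO saline, was at least 3.56-fold lower there than the mean of all 4 WT saline arrays (adjusted p = 0.0063), and was not called without arrays 1 and 2 (adjusted p = 0.122), when the WT saline mean was -4.73 against the KO floor of -4.92. Tap2 was higher by 0.94 ± 0.32 (adjusted p = 0.0222) and 0.96 (0.0794) without arrays 1 and 2, and its call was also lost without KO saline array 1, KO saline array 4 or WT saline array 1 alone. Psmb8, at -0.78 and not called with all arrays, was called lower without WT saline array 3 (-1.27, adjusted p = 0.0429).

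After LPS, 4 of the 10 genes were higher in KO than in WT and none was lower, against 25.9% and 21.4% of all genes. They were Psmb10 (1.80 ± 0.20, adjusted p = 8.9e-06), Tap2 (1.14 ± 0.32, 0.0084), B2m (0.90 ± 0.24, 0.0069) and H2-T23 (0.70 ± 0.28, 0.0496), all from limma. The B2m call was lost under normexp (0.67, adjusted p = 0.104). H2-T23 sat at the threshold, was lost under median scaling (adjusted p = 0.0637), quantile scaling (0.0866) and no filter on dim probes (0.0640), and lost its call in 10 of the 16 fits that left out 1 array: without any 1 of the 4 KO LPS arrays, KO saline arrays 2, 3 or 4, WT LPS arrays 1 or 4, or WT saline array 2. Its adjusted p over those fits ran from 0.0345 to 0.171. These counts are near the shares over all genes, and genotype coincides with the scan session. Without WT saline arrays 1 and 2, H2-D1 was also called, as lower in KO (-0.63, adjusted p = 0.0214), where 49.4% of all genes were called. It was likewise called lower with only the groups compared (adjusted p = 0.0114), array weights (0.0426) and base composition correction (0.0454, limma). These values are of the brighter H2-D1 probe. The other H2-D1 probe that passed the filter gave 0.07 with all arrays (adjusted p = 0.884, limma over probes). Calls as higher in KO were gained by Tapbp (0.74, adjusted p = 0.0258) and Psmb9 (0.79, 0.0107) under normexp. Psmb8 gained one with the mean of its probes (1.26, 0.0447, limma). Of the genotype calls, 55.8% were higher in KO after saline, and 73.1% under normexp.

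The Psmb8 probes gave LPS differences of like size and genotype differences of opposite sign after saline. The first Psmb8 probe (mm9 chr17:34337771-34337830, plus strand) differed by 0.34 between KO and WT after LPS (adjusted p = 0.618), and the second (chr17:34337828-34338152, plus strand, a 60-base probe over 325 bases of genome) by 2.17 (adjusted p = 0.0011, limma over probes, which called 48.4% of all probes). Their sequences, adjacent on the chromosome, are shown because the gene-level genotype value depends on which is read.
Psmb8 probe 1: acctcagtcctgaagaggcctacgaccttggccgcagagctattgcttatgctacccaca
Psmb8 probe 2: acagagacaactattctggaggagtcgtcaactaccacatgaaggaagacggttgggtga
After saline the first gave -0.78 and the second 1.04, neither called, while after LPS in KO they gave 2.29 and 2.18. The Tapbp probes gave 0.14 and -1.13 between KO and WT after LPS, and the second was called (adjusted p = 0.0011). After saline the Tapbp probes gave -0.14 and -1.06, and the second was again called (adjusted p = 0.0016, limma over probes). The H2-K1 probes gave -0.67, 0.17, 0.04 and 0.46 between KO and WT after LPS, none of them called. Of the 18 probes, 13 rose after LPS in KO, against 2.11% of the 28345 probes tested.

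**Figure D4:**
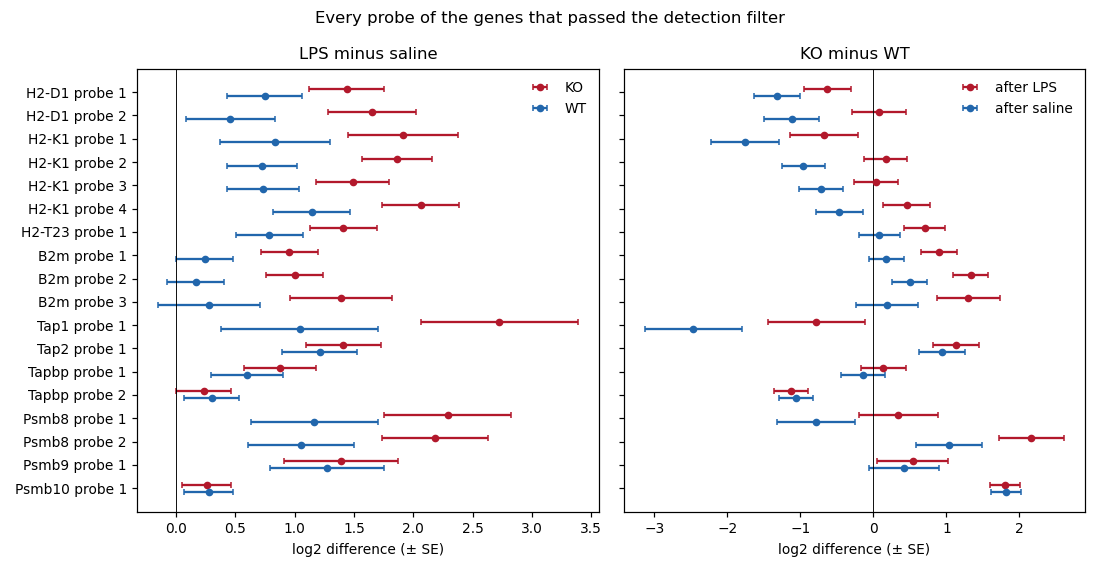
Log2 difference (± SE) of each of the 18 probes that passed the filter, LPS minus saline by genotype on the left and KO minus WT by treatment on the right. The 2 Psmb8 probes lie together on the left (2.29 and 2.18 in KO) and apart on the right (0.34 and 2.17 after LPS), and the 2 Tapbp probes lie apart on both.

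Across the 16 arrays, centred within genotype, 9 of the 10 genes followed the mean of the others with r between 0.79 (Tap2) and 0.97 (H2-T23 and H2-D1), and Psmb10 with r = 0.44. Arrays of a group share treatment, and each slide holds arrays of both treatments of 1 genotype, so these correlations are a description. Among 14500 named genes outside the set, the 5 most like the mean of the 10 were Fas (r = 0.987), Rasip1 (0.982), Batf2 (0.982), Icam1 (0.980) and Ifi209 (0.979). Fas, a death receptor, averaged 0.48 on KO LPS and -1.32 on KO saline arrays, and 0.35 on WT LPS and -0.52 on WT saline arrays. Icam1, an adhesion molecule of endothelium and immune cells, averaged 1.59 on KO LPS and -1.97 on KO saline arrays, and 1.21 on WT LPS and -0.10 on WT saline arrays.

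Other class I heavy chains also rose after LPS in KO: 7 of the 12 tested, against 2.50% of all genes, with 1 lower, and a median of 1.11 against -0.09 over all genes. H2-Q7 (1.59 ± 0.27, adjusted p = 0.0035), H2-Q5 (1.55 ± 0.32, 0.0111), H2-Q10 (1.54 ± 0.32, 0.0112) and Fcgrt (-1.37 ± 0.31, 0.0192) had the smallest p values (limma). The H2-Q genes encode Qa-2 type molecules and their relatives, and Fcgrt encodes the neonatal Fc receptor, a class I-like chain that carries antibody and albumin rather than peptide. H2-Q2 (1.46), H2-Bl (1.66, well above background on 3 of 4 KO saline arrays), H2-Q8 (1.93) and H2-M3 (0.70) rose as well. The probes for H2-Q2, H2-Bl, H2-Q7 and H2-Q10 have the overlaps given above. In WT none of the 12 was called, and 5 rose and 1 fell without saline arrays 1 and 2, where 1.91% of all genes rose.

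Of 17 transcription factor genes tied to class I promoters, 5 rose and 1 fell after LPS in KO, with a median of 0.40, where 2.50% of all genes rose and 3.66% were called in either direction. Irf1, an interferon-induced activator of class I and immunoproteasome promoters, averaged 3.24 on KO LPS and 0.82 on KO saline arrays, a difference of 2.41 ± 0.42 (adjusted p = 0.0042, limma). Irf7, the master factor of type I interferon production, rose by 3.77 ± 0.76 (adjusted p = 0.0103) on measured values, with 2 of the 4 KO saline arrays well above background, and Nfkb1, the p105 precursor of NF-kB, by 0.83 ± 0.15 (0.0062). Irf9 (1.39) and Stat2 (1.07), components of interferon-activated transcription complexes, rose too. Rfxank, a subunit of the RFX complex on class I and II promoters, fell by 0.92 (adjusted p = 0.0170). In WT none of the 17 was called, and 4 rose without saline arrays 1 and 2, where 1.91% of all genes did.

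With all arrays, no other list held a call after LPS. None of the 10 peptide loading and trimming genes, the 9 proteasome activator and assembly genes, the 3 standard catalytic subunits Psmb5, Psmb6 and Psmb7, the 7 interferon receptor and kinase genes or the 6 tested class II presentation genes was called in KO or in WT (limma). Their median differences in KO were -0.23, -0.12, -0.24, -0.07 and -0.49. Without WT saline arrays 1 and 2, 1 of the 10 peptide loading and trimming genes was called higher in KO, against 3.12% of all genes. That fit called no gene of the other lists named here, and none of any in WT. Between genotypes, Psme2, a subunit of the interferon-inducible proteasome activator, was higher in KO by 1.90 ± 0.18 after saline and 2.35 ± 0.18 after LPS. Psmb6, a standard catalytic subunit, was higher by 1.28 ± 0.21 and 1.19 ± 0.21. Both were called in both treatments, as Psmb10 was. Of the 9 activator and assembly genes, 6 were higher in KO after saline (5 without WT saline arrays 1 and 2) and 5 after LPS. Of the 3 standard subunits, 1 was higher in each. Over all genes the shares higher were 28.5% and 25.9%. Psmb5 and Psmb7 were not called, with Psmb7 at -0.27 and -0.24. Of the 6 class II presentation genes, 5 were higher in KO after saline (3 without WT saline arrays 1 and 2) and 4 after LPS, where 28.5% and 25.9% of all genes were higher, led by H2-Eb1 (1.96 ± 0.25 and 1.59 ± 0.25), again with the scan session shared by genotype.

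**Figure D5:**
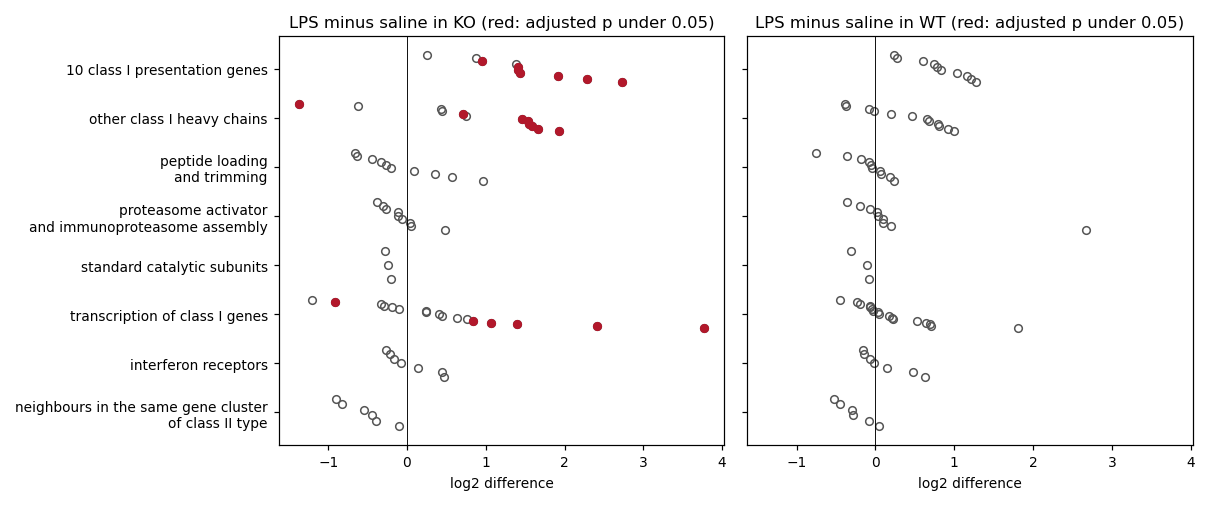
LPS minus saline difference (log2) of each gene in the class I set and in 7 lists of related genes, in KO on the left and WT on the right, red where the adjusted p was under 0.05. In KO the called genes lie in the class I set (7), the other heavy chains (8) and the transcription list (6), and none is called in WT. The list labelled as neighbours of class II type holds the class II presentation genes, Cd74 among them.

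Markers of other cells are given beside the class I result, since in whole tissue more cells of a type and more RNA per cell cannot be told apart. The mean level of 4 tested neutrophil and monocyte markers (7 on the array) ran from -0.23 to 1.13 on KO LPS arrays, against -1.24 to -0.50 on KO saline arrays, and none of the 4 was called. Of 11 T and natural killer cell markers, 4 were tested, and Cd3g, Cd8a, Cd8b1, Ncr1 and Prf1 were not well above background on any array. The mean of the 4 ran from -3.23 to -2.67 on KO LPS arrays, against -2.80 to -2.22 on KO saline arrays. The mean of 8 microglial markers ran from -0.0032 to 0.36 on KO LPS arrays, against 0.13 to 1.099 on KO saline arrays, and that of 7 endothelial markers from -0.77 to -0.19, against -0.57 to 0.79, with 1 endothelial marker called lower. The mean of 5 astrocyte markers ran from 2.28 to 2.40 on KO LPS arrays, against 1.82 to 2.14 on KO saline arrays, without overlap and with 1 marker called higher. The amygdala neuron list had 5 of 6 markers on the array, all tested. The part of these markers in the class I result was not tested.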

How the data were processed

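RNA from the amygdala was labelled with Cy3 and read on 16 Agilent 1-colour arrays, 4 per group. Per the file headers, the deposited intensity values (processed signal) had local background subtraction, multiplicative detrending and surrogate values for dim spots, with no scaling between arrays, and probe coordinates on mm9; the submitters' processing notes name Feature Extraction 9.5. The authors' deposited log2 values are group means whose normalization is not given in the sources used here, and the authors' deposited fold values are unsigned linear ratios with a stated direction. A further 32 columns of calls per array were not used.

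From the intensities, log2 minus the 75th percentile of each array was computed, control and outlier spots were left out, and probes well above background on at least 3 of 4 arrays of a group were kept (28345), the brightest per gene standing for it. Group means over all 16 arrays were fitted with limma 3.58.1 (R 4.3.3), with Benjamini-Hochberg adjustment over 19462 genes and a threshold of 0.05. Genotype was not separable from scan session. A bound ("at least") sets the bright group's mean against the higher, on each array, of the dim probe and the lowest signal well above background. Precision is limited by the number of arrays, and no 2 arrays were duplicates (smallest median difference 0.12). The code was tested on simulated data.

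The genes and the lists were chosen with earlier results of these data known. Named list genes are up to 4 called genes per list by smallest p, plus the others of a list with calls, chosen after their values were seen. Alternatives were normexp, median and quantile scaling, filters on dim probes, probe choice, slide as a block, the replicate number as a block, array weights, base composition and leaving out each array. Same-numbered arrays did not deviate together in every pair (correlations from -0.38 to 0.34 between KO groups). Some same-numbered LPS and saline arrays shared a slide and others did not, so this check cannot decide whether the numbers pair the arrays.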

Additional observations from a re-analysis of the deposited data

Results flagged for a closer look

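Of 72 groups of 4 arrays examined over the 18 probes, 3 held an array whose gap to its nearest neighbour exceeded Dixon's critical share of the group's range, and chance alone marks about 1 in 20 groups. KO saline array 1 was high for both Psmb8 probes, at 0.95 with the nearest array at 0.19 for 1 probe, and at 0.08 with the nearest array at -0.66 for the other. KO LPS array 4 was low for Tap2, at -0.93 with the nearest array at -0.56.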

How the results depend on the processing

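Among the LPS differences in KO, 256 of the values under other settings kept direction and side of the threshold, 53 lost the call, 9 gained one and 1 reversed (Tap1 -0.15 under normexp). The 256 include the differences of the authors' group means, which have no p-value and were compared by size only. The cause of the changes below was not tested. Genes called for LPS in KO numbered 389 under normexp, 178 within slide 4 (0 of the 10) and 2719 with array weights; leaving out 1 array gave 428 to 754 genes and 1 to 7 of the 10. For LPS in WT they numbered 1 with detection on all arrays and under quantile scaling, 0 under base composition (1460 at unadjusted p under 0.05, limma), median scaling (1197), no dim filter (1651) and every probe tested (1785), 610 without WT saline arrays 1 and 2 (6 of the 10), 244 within slide 2 (2 of the 10), 4 with slide as a block, 7 with only the groups compared and 1530 with array weights (8 of the 10); leaving out 1 array gave 0 to 19 genes and 0 of the 10. Within slide 1, B2m (-0.18), Tap1 (-0.55) and Psmb8 (-0.19) reversed. For KO against WT after saline, 1 of the 10 was called without WT saline arrays 1 and 2, and Tapbp (0.39) and Psmb8 (0.54) reversed there; others reversed were Psmb8 with the mean of probes (0.13), B2m (-0.38), Tap1 (0.47) and Tapbp (0.17) under normexp, H2-T23 under quantile scaling (-0.013), and Tapbp (0.0060) and Psmb8 (0.019) with array weights. Leaving out 1 array gave 8553 to 9944 genes, 4 to 6 of the 10, H2-T23 from -0.083 to 0.29 and Tapbp from -0.42 to 0.054. After LPS, Tapbp was -0.036 under base composition and -0.49 with the mean of probes; leaving out 1 array gave Tapbp from -0.014 to 0.22, 7938 to 10843 genes and 3 to 4 of the 10. For the difference of the responses, genes called numbered 1 with detection on all arrays, without WT saline arrays 1 and 2, with no dim filter and with every probe, 3 under median scaling, 0 under normexp (3872 unadjusted, limma), 11 under quantile scaling, 16 with slide as a block and 213 with array weights, and 0 to 11 without 1 array. With the replicate number as a block, 572 genes and 5 of the 10 were called for LPS in KO (B2m at 0.087 and Tap2 at 0.052 lost), 0 genes for LPS in WT (1154 unadjusted, limma) and 0 for the difference of the responses (1212), and the H2-T23 call after LPS was lost (0.077). Normexp moved the median of all genes for LPS in KO to -0.23 and for genotype after saline to 0.43, against -0.09 and 0.07. Dim probes such as Tap1 are limited by signal over background.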
